A study of Mus musculus with 20 samples.

Results

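Coagulation factors and their inhibitors were followed in mouse liver as a set of 34 genes listed by name. Of these, 30 were measured by a probe set of the array that names 1 gene symbol, among 22180 genes measured in this way. The remaining 4, Klkb1, Cpb2, F2rl1 and Gp1ba, were not analysed here, and the probe set of Klkb1 also names Cyp4v3. The list was divided by role into 14 procoagulant factors and 9 inhibitors or modulators made by hepatocytes, of which 13 and 8 were measured, 2 plasma factors made mainly by other cells, 5 regulators held at the cell surface or in the matrix, and 4 protease or platelet receptors, of which 2 were measured.

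Livers came from 20 adult male mice of mixed C57BL/6 and CBA background, 10 WT and 10 Bnc2 heterozygous. The heterozygous mice carried 1 allele of the Ayu21-18 line, in which a gene trap vector inserted into Bnc2 inactivates the gene in every cell type, and the WT mice were littermates. All 20 mice, controls included, had been fed for 7.5 weeks with CDAA-HFSC, a choline-deficient diet with defined amino acids and added sucrose, fat and cholesterol that produces steatohepatitis with fibrosis. No chow-fed liver was on these arrays, so the comparison answers whether loss of 1 Bnc2 allele went with a different level of coagulation transcripts in livers under this diet, and not what the diet did to them. RNA was taken from unsorted tissue of 1 lobe, the superior right, so fewer cells of a type and less RNA per cell cannot be told apart.

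Clotting is a cascade of proteases that circulate as inactive precursors. Tissue factor on a cell surface binds factor VII and starts activation of factor X, the contact system of factor XII, prekallikrein and kininogen feeds in through factors XI and IX, and the thrombin that results cuts fibrinogen into fibrin. Hepatocytes secrete most of these precursors and also the inhibitors that hold them back, while endothelial cells carry thrombomodulin, the protein C receptor and tissue factor pathway inhibitor, and protease-activated receptors report thrombin to the cell. Fibrinogen is also a positive acute phase protein, whose genes in hepatocytes respond to interleukin-6 through STAT3.

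The 3 fibrinogen chains, Fga, Fgb and Fgg, are encoded by neighbouring genes on chromosome 3, and their transcripts moved together from mouse to mouse, as shown further on. Their promoter windows, 250 bases before to 50 after the annotated start (RefSeq, GRCm38.p6), are given because they show which letters the 3 neighbours share. Capitals mark matches to 3 motifs searched on both strands: GTTAAT or ATTAAC, the core bound by HNF1, CTGGGAA or TTCCCAG, of the kind described in interleukin-6 response elements, and TTGCNNAA or TTNNGCAA, of the kind bound by C/EBP factors. No match overlapped another.
Fga, chr3:83025903-83026202, plus strand: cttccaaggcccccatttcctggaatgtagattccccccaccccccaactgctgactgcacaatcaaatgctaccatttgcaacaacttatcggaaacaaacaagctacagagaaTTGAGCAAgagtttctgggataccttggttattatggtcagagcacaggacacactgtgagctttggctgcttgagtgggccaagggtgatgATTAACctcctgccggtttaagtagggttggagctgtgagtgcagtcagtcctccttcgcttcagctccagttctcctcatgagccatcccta
Fgb, chr3:83049814-83050113, minus strand: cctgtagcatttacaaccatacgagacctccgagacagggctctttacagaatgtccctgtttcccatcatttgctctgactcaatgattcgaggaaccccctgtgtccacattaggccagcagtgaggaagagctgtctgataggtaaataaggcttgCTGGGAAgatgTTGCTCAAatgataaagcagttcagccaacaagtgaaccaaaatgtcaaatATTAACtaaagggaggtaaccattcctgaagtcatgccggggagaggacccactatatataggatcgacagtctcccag
Fgg, chr3:83007474-83007773, plus strand: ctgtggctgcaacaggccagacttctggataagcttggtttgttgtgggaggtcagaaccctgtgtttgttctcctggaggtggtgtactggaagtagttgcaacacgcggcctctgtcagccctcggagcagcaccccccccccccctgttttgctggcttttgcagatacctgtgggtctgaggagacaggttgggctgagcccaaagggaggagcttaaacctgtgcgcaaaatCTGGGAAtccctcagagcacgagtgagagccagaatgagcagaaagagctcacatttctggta
Counting to the first base printed of each match, the HNF1 core lay 43 bases before the start of Fga and 29 bases before that of Fgb, in reverse orientation in both. The interleukin-6 type lay 91 bases before the start of Fgb and 13 bases before that of Fgg, and the C/EBP type 135 bases before the start of Fga and 80 bases before that of Fgb. None of the motifs was found in all 3 windows. Over 32851 mouse promoter windows of the same length, 7.1% held the HNF1 core, 11.1% the interleukin-6 type and 10.8% the C/EBP type. Among 19 windows of hepatocyte-made members, 5, 4 and 10 held them, and among 13 windows of the other members 2, 3 and 2. Windows were found for 28 of the 34 members, and some genes have more than 1 window. A match describes letters only and is not evidence of a bound site.

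The arrays were alike, with medians of all probe sets between 6.62 and 6.71 on the log2 scale and correlations between arrays from 0.987 to 0.994. Of 9 measured hepatocyte markers, 8, albumin among them, were above background in all 20 livers, and Ass1, a urea cycle enzyme, was above it in 15 (7.40 in WT and 7.41 in heterozygous livers, means on the log2 scale). Bnc2 itself read 5.37 ± 0.25 in WT and 5.41 ± 0.13 in heterozygous livers (SD, n = 10 each), under the background reference of every array, and therefore did not check the genotype labels. That reference was the 95th percentile of 1105 olfactory receptor genes on the same array, few of which are used in liver, and lay between 6.85 and 7.38. By this measure 24 of the 30 members were above background in all 20 livers. Serpina5 and A2m, which human hepatocytes make, and F13a1, the catalytic subunit of factor XIII, carried by macrophages and platelets, were above it in none. Thbd was above it on 9 arrays, Procr on 17 and F2rl2 on 3.

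Levels of the coagulation genes in WT and Bnc2 heterozygous livers lay close together. Across the 21 measured hepatocyte-made genes the median difference, heterozygous minus WT, was -0.02 on the log2 scale, beside 0.00 over all 22180 genes, and 11 of the 21 differences were negative. The 21 include Serpina5 and A2m, which were below background in every liver, and the median fold of the other 19 was 0.988. The 7 surface regulators and receptors had a median difference of -0.04, with 5 of 7 negative. In limma with Benjamini-Hochberg adjustment over all genes, 0 of the 30 members passed the threshold of 0.05 (adjusted p 0.641 to 0.997), and neither did any other gene (0% called, smallest adjusted p 0.446). At unadjusted p under 0.05, 1 member was lower in heterozygous livers, Procr, and 1 was higher, Serpind1. The same cutoff took 806 of all genes as lower (3.63%) and 616 as higher (2.78%), so that 1 of 30 in each direction is near the background. Differences were negative for 17 members and positive for 13, against 10877 negative among all genes.

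**Figure D1:**
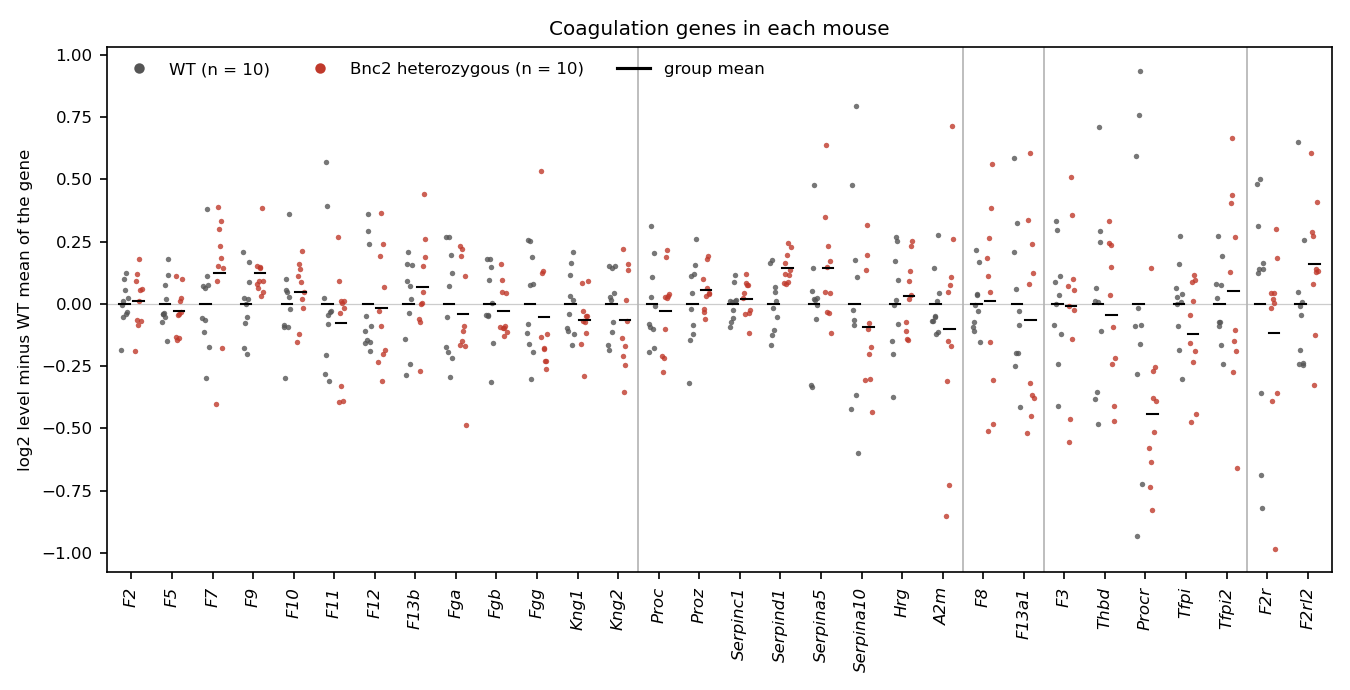
Log2 level of each measured coagulation gene in each liver, less the mean of the WT livers for that gene, for WT (grey, n = 10) and Bnc2 heterozygous mice (red, n = 10), with black bars for group means and grey lines between roles. The points of both genotypes overlap for all 30 genes, and the widest difference of means is that of Procr (-0.44).

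The intervals around these small differences were narrow for the hepatocyte-made genes. For the 19 that stood above background in every liver, the fold of heterozygous over WT ran from 0.936 to 1.11, and the 95% intervals lay within 0.762 and 1.25. The widest belonged to Serpina10, without which the lowest bound was 0.810. For the 4 surface regulators and receptors above background in every liver, Tfpi, Tfpi2, F3 and F2r, intervals reached from 0.719 to 1.25. A p above the threshold does not show that the genotypes were equal. In array values, a 1.5-fold difference in either direction lay outside the interval of all 19 hepatocyte-made genes above background. Some of these genes read high on the scale, where the processing can compress differences. Near the top, Alb and Ahsg had identical group means (19.93 in WT livers). For the brightest genes the intervals therefore do not bound the difference in transcript amount.

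**Figure D2:**
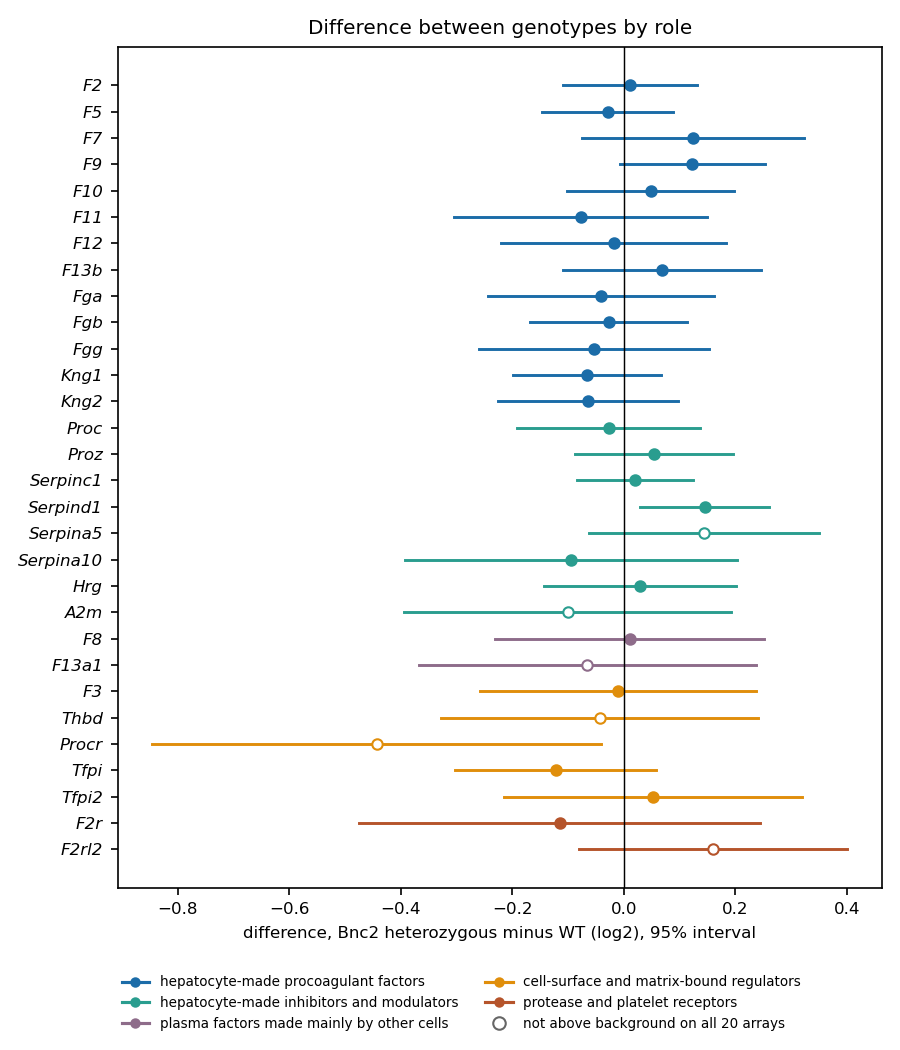
Difference between genotypes, Bnc2 heterozygous minus WT on the log2 scale, with its 95% interval from limma for each measured gene, coloured by role (10 livers per genotype). Open circles mark genes that were not above background on all 20 arrays. The interval excludes 0 for Serpind1 (0.14) and Procr (-0.44), both without adjustment.

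Among procoagulant factors, the fibrinogen chains are the substrate that thrombin turns into the clot. Fga, the alpha chain (probe set 17398499), had a lowest, median and highest log2 level of 17.55, 17.85 and 18.11 in WT livers and 17.35, 17.74 and 18.07 in heterozygous livers. The ranges overlapped almost fully, with a fold of 0.972 (95% interval 0.844 to 1.12, limma unadjusted p = 0.679). Fgb, the beta chain (17406252), ran from 18.71 through 19.00 to 19.20 in WT and from 18.90 through 18.93 to 19.18 in heterozygous livers. Its heterozygous range lay inside that of WT, at a fold of 0.982 (0.890 to 1.08, p = 0.697). Fgg, the gamma chain (17398485), was at 18.23, 18.53 and 18.79 in WT and 18.27, 18.38 and 19.07 in heterozygous livers. The highest liver of all for Fgg was heterozygous, yet the median was lower in that group, and the fold was 0.963 (0.835 to 1.11, p = 0.593).

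F9, encoding factor IX, the protease missing in haemophilia B, was the procoagulant gene with the smallest p. Its lowest, median and highest log2 levels were 16.14, 16.35 and 16.55 in WT livers and 16.37, 16.43 and 16.72 in heterozygous livers (probe set 17535098). No heterozygous liver was below the WT mean, although the ranges overlapped. The fold was 1.09 (0.995 to 1.19) with a limma adjusted p of 0.798 (unadjusted 0.0640, permutation p = 0.0305 over genotype labels, two-sided). Leaving out single mice, the unadjusted limma p ran from 0.0300 (without WT mouse 1) to 0.136 (without heterozygous mouse 8). That last liver was the highest for F9, and without it the difference was 0.094 on the log2 scale.

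F7, encoding the partner of tissue factor (17499212), lay at 13.47, 13.77 and 14.15 in WT and at 13.37, 13.94 and 14.16 in heterozygous livers. The groups covered the same range, at a fold of 1.09 (0.949 to 1.25, limma p = 0.211 before and 0.893 after adjustment). Kng1 (17324356), a kininogen gene, from whose product plasma kallikrein frees bradykinin, was at 15.22, 15.38 and 15.60 in WT and 15.10, 15.33 and 15.48 in heterozygous livers. Heterozygous livers were under the WT mean in 8 of 10 mice, but the difference was only -0.07 with an SE of 0.06 (limma adjusted p = 0.927).

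The other procoagulant genes were prothrombin (F2), factor V (F5), which is the cofactor of activated factor X, factor X itself (F10), the contact phase proteases F11 and F12, the carrier subunit of factor XIII (F13b) and the second kininogen gene, Kng2. Their differences lay between -0.08 for F11 and 0.07 for F13b on the log2 scale. The lowest unadjusted limma p among these 7 genes was 0.415, that of Kng2. Of all 13 measured procoagulant genes 8 had a negative difference, with a median of -0.03.

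Of the inhibitors, Serpind1, encoding heparin cofactor II, which inactivates thrombin in the presence of dermatan sulphate, had the smallest p of all 30 genes. Its lowest, median and highest log2 levels were 17.36, 17.52 and 17.70 in WT livers and 17.60, 17.65 and 17.77 in heterozygous livers (probe set 17323457). All 10 heterozygous livers were above the WT mean, 3 were above the highest WT liver, and 8 WT livers were below the lowest heterozygous liver. The means were 17.52 ± 0.12 and 17.67 ± 0.06 (SD, n = 10 each), a fold of 1.11 (1.02 to 1.20). The permutation p over genotype labels was 0.0031 and the unadjusted limma p 0.0164, but over all genes the adjusted p was 0.641. With same-numbered mice treated as a block the unadjusted limma p was 0.0559, whereas it stayed under 0.05 in every other alternative run.

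Serpina5, encoding protein C inhibitor (17278244), was not above background in any liver and read 4.80 ± 0.23 in WT and 4.95 ± 0.22 in heterozygous livers (limma p = 0.164). Proz, encoding protein Z, the cofactor of the Serpina10 product (17499240), lay at 15.53, 15.86 and 16.11 in WT and 15.79, 15.89 and 16.04 in heterozygous livers. The heterozygous livers were inside the WT range at a fold of 1.04 (0.941 to 1.15, limma p = 0.441). Serpina10, encoding the protein Z-dependent inhibitor of activated factor X (17283565), was at 15.04, 15.59 and 16.43 in WT and 15.20, 15.50 and 15.96 in heterozygous livers. This gene varied most among the hepatocyte-made genes above background, with SDs of 0.42 in WT and 0.24 in heterozygous livers (fold 0.936, 0.762 to 1.15, limma p = 0.515).

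Serpinc1, encoding antithrombin, the main plasma inhibitor of thrombin and activated factor X, was the steadiest. Its SD was 0.07 in each genotype and its fold 1.01 (0.943 to 1.09), the narrowest interval among the 30. Its mean of 18.16 in WT livers was high on the scale, where differences and spread can be compressed. Proc (protein C) and Hrg (histidine-rich glycoprotein, a heparin-binding plasma protein) differed by -0.03 and 0.03 on the log2 scale, and A2m, below background, by -0.10.

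F8 encodes factor VIII, the cofactor missing in haemophilia A, which in the liver comes from sinusoidal endothelial cells. Its lowest, median and highest log2 levels were 12.11, 12.24 and 12.48 in WT livers and 11.75, 12.34 and 12.82 in heterozygous livers (probe set 17542781). Heterozygous livers spread on both sides of the WT range, 4 below the lowest and 3 above the highest WT liver, with SDs of 0.12 in WT and 0.36 in heterozygous livers. The means differed by only 0.01 (SE 0.12, limma p = 0.928). A wider spread in heterozygous livers was also seen for Tfpi2 (0.16 and 0.40) and A2m (0.13 and 0.46), whereas Procr (0.61 and 0.28) and Serpina10 went the other way. These differences in spread were not tested. Heterozygous mice 9 and 10, whose arrays were among the 4 with the smallest spread of values, read 11.95 and 11.78 for F8. The lowest Tfpi2 (12.31, mouse 10) and the highest A2m (6.21, mouse 9) came from the same arrays. WT mice 4 and 6, also among the 4, read 12.25 and 12.29 for F8. Heterozygous mouse 5 was only just below the lowest WT liver for F8 (12.104 against 12.106). F13a1 read 6.29 ± 0.30 in WT and 6.22 ± 0.39 in heterozygous livers, below background in all.

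Procr, encoding the endothelial receptor that presents protein C to the thrombin and thrombomodulin complex, had the widest difference. Its lowest, median and highest log2 levels were 6.87, 7.72 and 8.74 in WT livers and 6.98, 7.36 and 7.95 in heterozygous livers (probe set 17378440). Of the latter, 9 of 10 were below the WT mean, and 3 WT livers exceeded the highest heterozygous liver. The fold was 0.735 (0.556 to 0.972), with limma p = 0.0323 before and 0.727 after adjustment, and a permutation p of 0.0507. These levels lay near the background reference, which Procr did not exceed on 3 of 20 arrays. Without WT mouse 2, 6 or 8 the unadjusted p was 0.0656, 0.0699 and 0.0717, and without heterozygous mouse 2 or 5 it was 0.0541 and 0.0582.

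**Figure D3:**
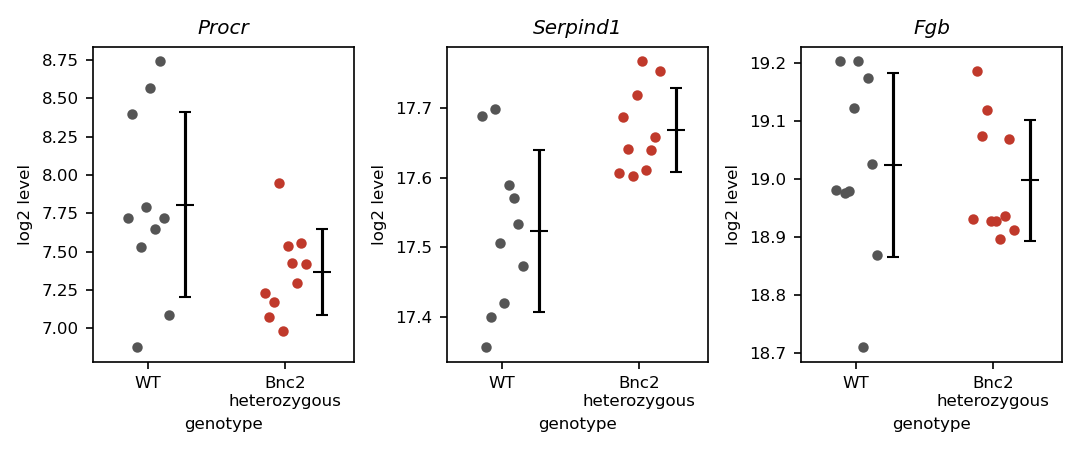
Log2 levels of Procr, Serpind1 and Fgb in each liver by genotype, with the mean and SD of each group (n = 10) to the right of its points. Procr shows 3 WT livers above every heterozygous liver, Serpind1 shows 8 WT livers below every heterozygous liver, and for Fgb the heterozygous livers lie within the WT range.

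Tfpi, encoding the inhibitor of the complex of tissue factor and factor VII, was the surface gene with the next smallest p. It lay at 9.62, 9.94 and 10.19 in WT livers and at 9.44, 9.82 and 10.03 in heterozygous livers (17387407). The 2 lowest livers were heterozygous and the 2 highest WT, and the fold was 0.919 (0.810 to 1.04, limma p = 0.174). Thbd, encoding thrombomodulin, which turns thrombin towards protein C, differed by -0.04 with an SE of 0.14. F3, encoding tissue factor (17402181), differed by -0.01 with an SE of 0.12, and Tfpi2, a matrix-bound inhibitor of plasmin and other proteases, by 0.05 with an SE of 0.13.

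Thrombin signals to cells mainly through the receptor encoded by F2r. F2r was at 12.91, 13.87 and 14.23 in WT livers and at 12.74, 13.74 and 14.03 in heterozygous livers (17295130). Both groups spread over more than 1 log2 unit, and the fold was 0.923 (0.719 to 1.18, limma p = 0.513). F2rl2, encoding a further thrombin receptor, which in mouse platelets assists another receptor, was at 6.71 ± 0.28 and 6.87 ± 0.26 (limma p = 0.183), above background on only 3 arrays.

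The spread among mice was also compared between roles, as a description of gene lists that was not tested. Within genotype, the SD of the 19 hepatocyte-made genes above background had a median of 0.164 on the log2 scale (0.0699 to 0.342). For the 4 surface regulators and receptors the median was 0.292 (0.191 to 0.420), and for the 8962 genes above background on all arrays it was 0.211. The roles also differed in brightness. In WT livers the median of the per-mouse mean was 16.40 for the 19 genes and 11.17 for the 4. Spread can be compressed high on the scale, and the part of brightness in these SDs was not tested.

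Which genes varied together was asked of deviations from the genotype means over all 20 mice. Of 9 pairs taken for a shared protein, a shared neighbourhood or a joint action, 7 could be computed and 4 passed a permutation test within genotypes, two-sided, with Benjamini-Hochberg adjustment over the 7. All 3 fibrinogen pairs did. Fga and Fgb correlated with r = 0.868 (rho 0.856) and Fgb and Fgg with r = 0.852 (rho 0.815), each with an adjusted permutation p of 3.5e-05. The unadjusted p of both was 1e-05, the smallest that 100000 permutations can give. Fga and Fgg correlated with r = 0.780 (rho 0.761, adjusted permutation p = 0.000373). Without the 2 mice farthest from the median these 3 values were 0.909, 0.871 and 0.892 in the same order.

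A WT liver high in 1 chain was high in all 3. WT mice 2 and 6 had the highest Fga (18.11 in each) and also the highest Fgb (19.20) and Fgg (18.79 and 18.78), and WT mouse 7 had the lowest of each (17.55, 18.71 and 18.23). Within WT mice r was 0.917 for Fga and Fgb, 0.952 for Fgb and Fgg and 0.992 for Fga and Fgg. Within heterozygous mice it was 0.860, 0.831 and 0.628, and in this group alone the pair of Fga and Fgg missed the adjusted threshold (permutation p = 0.0661). Whether the genotypes differ in this respect was not tested. Heterozygous mouse 2, with the highest Fgg of all, was also the highest heterozygous mouse for Fga (18.07) and Fgb (19.18).

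F7 and F10, neighbours on chromosome 8 whose products act in succession, correlated with r = 0.618 (rho 0.553, adjusted permutation p = 0.00656, and r = 0.561 without the 2 farthest mice). Their levels moved with the median of the array (r = -0.725 for F7 and -0.487 for F10), and with the array median taken out together with genotype the pair had r = 0.441 (adjusted permutation p = 0.0135, residuals permuted within genotypes). In WT mice alone r was 0.535 with an adjusted permutation p of 0.187. No relation passed for Kng1 and Kng2 (r = 0.404, rho 0.385, adjusted permutation p = 0.108), for prothrombin and antithrombin (r = 0.130, rho 0.209, p = 0.633) or for thrombomodulin and the protein C receptor (r = -0.129, rho -0.299, p = 0.633).

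**Figure D4:**
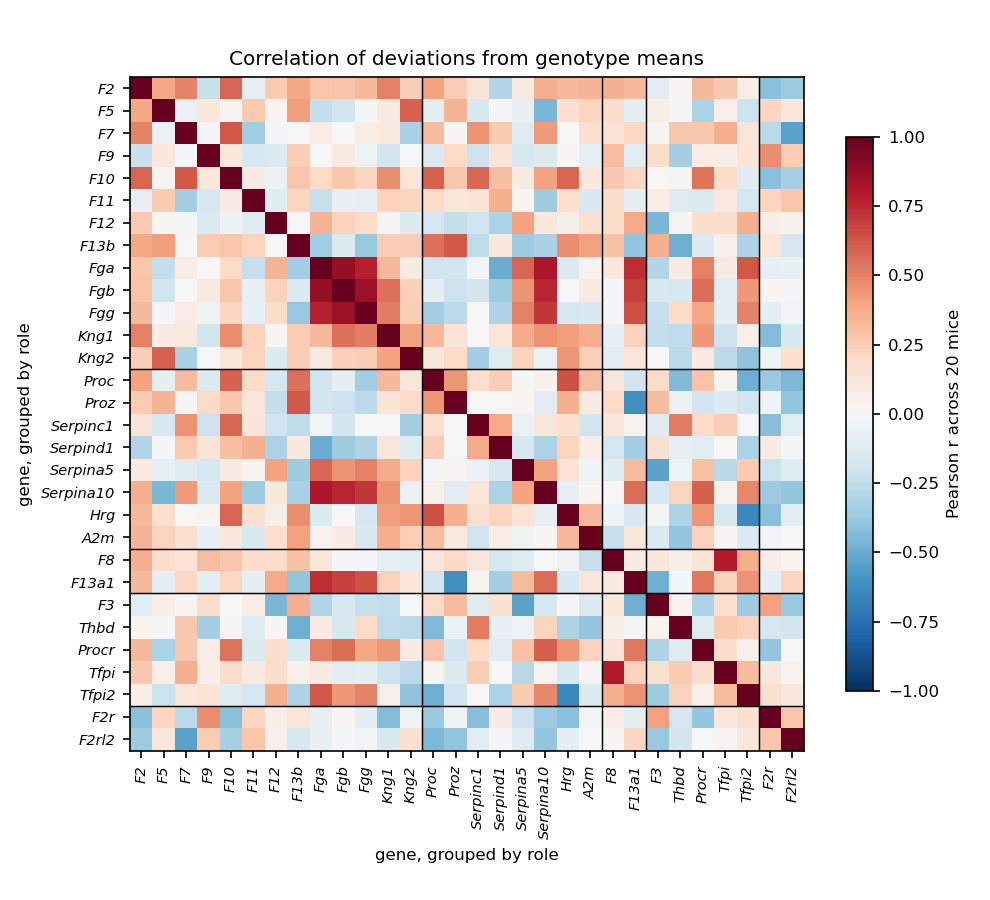
Pearson correlation between every pair of the 30 measured genes over 20 livers, on deviations from genotype means, with genes ordered by role and black lines between roles. Red cells are positive and blue cells negative. The block of Fga, Fgb and Fgg (0.780 to 0.868) stands out, together with their cells for Serpina10 (0.708 to 0.810).

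All 435 pairs of members were then screened, a family added after the data had been seen, and 10 passed a permutation test with adjustment over the 435. Besides the fibrinogen pairs these included Serpina10 with each fibrinogen chain, at r = 0.810 with Fga (rho 0.886), 0.761 with Fgb (rho 0.732) and 0.708 with Fgg (rho 0.743). The adjusted permutation p values were 0.00145, 0.0184 and 0.00957, and without the 2 farthest mice r was 0.821, 0.781 and 0.760. WT mouse 8, the highest for Serpina10 at 16.43, had 18.03, 19.17 and 18.72 for the 3 chains. F13a1 also followed Fga (r = 0.735, rho 0.752, adjusted permutation p = 0.0184) and Fgb (r = 0.684, rho 0.722, adjusted permutation p = 0.0261), although its values were below background in every liver.

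Outside this group, F8 correlated with Tfpi, both products of endothelial cells, at r = 0.789 (rho 0.791, adjusted permutation p = 0.00957, and r = 0.719 without the 2 farthest mice). Tfpi also moved with the array median (r = -0.557, and -0.333 for F8). The pair was not run with that median taken out. In heterozygous mice r was 0.923, with mouse 3 low in both (11.75 and 9.44) and mouse 8 high in both (12.82 and 10.01). In WT mice, where F8 varied little, r was 0.485 and did not pass (unadjusted permutation p = 0.157). Hrg and Tfpi2 were the only pair of the 10 to oppose each other (r = -0.647, rho -0.668, adjusted permutation p = 0.0137, and r = -0.672 without the 2 farthest mice). In WT mice alone this r was -0.590 (unadjusted permutation p = 0.0750).

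**Figure D5:**
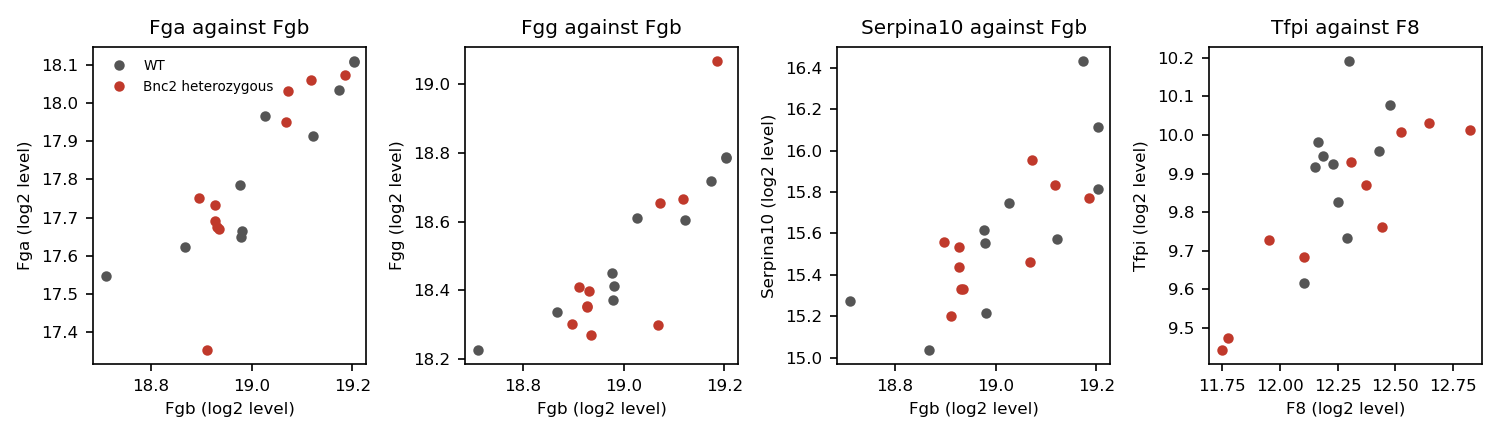
Log2 levels in each liver of Fga, Fgg and Serpina10 against Fgb, and of Tfpi against F8, for WT (grey) and Bnc2 heterozygous mice (red). Fga, Fgg and Serpina10 tended to rise with Fgb in both genotypes, though not in every liver. Heterozygous mouse 9 read 19.07 for Fgb but only 18.30 for Fgg. The heterozygous livers reach farther than the WT livers along the F8 axis (11.75 to 12.82 against 12.11 to 12.48).

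Members were also set against the mean level of 14 companion lists, again after the data had been seen, with members themselves left out of the lists. Of 420 such relations 12 passed the adjusted permutation test for r, and 6 of these were with the mean of 13 acute phase genes, such as serum amyloid A and haptoglobin. The mean was of unscaled log2 levels, so genes that vary widely weigh most in it. In WT livers the SD was 1.52 for Saa2 and 0.12 for Hp, the haptoglobin gene. Fgb had r = 0.797 with that list (rho 0.808, adjusted permutation p = 0.0147), Fga 0.757 (rho 0.741) and Fgg 0.758 (rho 0.642). Serpina10 had r = 0.766 (rho 0.698) and F13a1 0.759 (rho 0.781). By rho, Fga, Fgb and F13a1 passed the adjusted threshold, whereas Fgg (p = 0.123), Serpina10 (p = 0.0802) and Procr did not. The 3 fibrinogen genes kept an r of at least 0.722 without the 2 farthest mice and of at least 0.727 in each genotype.

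Procr correlated with the acute phase mean at r = 0.760 (rho 0.629, adjusted permutation p = 0.0191 for r and 0.182 for rho, and r = 0.684 without the 2 farthest mice). In WT mice r was 0.954 and in heterozygous mice 0.244 (unadjusted permutation p = 0.503), a difference that was not tested. The acute phase mean itself ran from 15.38 through 15.90 to 16.63 in WT and from 15.40 through 15.81 to 16.38 in heterozygous livers. Procr also followed the mean of 8 T and NK cell markers (r = 0.670, rho 0.656, adjusted permutation p = 0.0487 for r and 0.109 for rho, and r = 0.492 without the 2 farthest mice). Within WT mice this r was 0.787 and within heterozygous mice 0.549 (unadjusted permutation p = 0.108 in the latter). The T and NK cell mean ran from 6.40 to 7.28 in WT and from 5.99 to 6.83 in heterozygous livers, and 3 of the 8 markers were below background on all arrays. The part of either list in the difference of Procr between genotypes was not tested.

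Cell type markers varied with some of the other genes. Tfpi followed the mean of 10 sinusoidal endothelial markers (r = 0.775, rho 0.753, adjusted permutation p = 0.0150, and 0.704 without the 2 farthest mice). The array median, with which Tfpi moved, was not taken out of this relation. F8 had r = 0.701 with the same list (rho 0.729), which did not pass (adjusted permutation p = 0.0595), with 0.174 in WT and 0.873 in heterozygous mice. The endothelial mean ran from 12.12 through 12.41 to 12.58 in WT and from 11.97 through 12.36 to 12.54 in heterozygous livers. Hrg was lower where stellate cell and myofibroblast markers were high (r = -0.744, rho -0.702, adjusted permutation p = 0.0150 for r and 0.0654 for rho, and r = -0.671 without the 2 farthest mice). These collagen and stellate genes had a mean of 11.89 to 12.59 in WT and 11.38 to 12.25 in heterozygous livers. The share of these cells in each liver was not measured, and their part in the correlations was not tested.

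The remaining 3 relations joined Kng1 (r = 0.801, rho 0.776, adjusted permutation p = 0.0147) and Fgb (r = 0.687, rho 0.677, adjusted permutation p = 0.0390) to 12 other plasma serine protease inhibitors, and Tfpi to the vitamin K genes (r = 0.701, rho 0.651, adjusted permutation p = 0.0298). Without the 2 farthest mice these were 0.751, 0.626 and 0.726, and by rho only that of Kng1 passed the adjusted threshold. The relation of Fgb had r = 0.856 in WT mice and 0.492 in heterozygous mice (unadjusted permutation p = 0.153 in the latter). From the relation of Tfpi the array median was not taken out.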

How the data were processed

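Total RNA of 20 livers was hybridised by the authors to MoGene 2.0 ST arrays, 1 per mouse. All deposited values are log2 levels. Per the study's methods, the authors processed them with Affymetrix Power Tools by GC correction, signal scaling and robust multi-array averaging at core gene level; the version, genome build and annotation release for the mouse arrays are not given in the sources used here. This processing puts arrays on 1 scale and can compress differences near background and near the top of the scale. Genes came from the 23521 of 41345 probe sets with exactly 1 symbol in the platform annotation, averaged per symbol, giving 22180 genes. The 10 WT and 10 Bnc2 heterozygous livers were compared with limma 3.58.1 in R 4.3.3 (lmFit, eBayes, no filter, no covariate), with Benjamini-Hochberg adjustment over all genes. Single genes were also tested by 100000 two-sided permutations of genotype labels.

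Members and lists were chosen with earlier results of these data known. Full values are given for members under an unadjusted p of 0.05, the 2 to 4 of smallest p in each role, and the fibrinogen chains. At most 3 genes are named from most companion lists, and more from the hepatocyte, stellate, and T and NK cell markers. Other members were added where a role or a spread is described. The columns for samples outside the series numbered 0. Precision is limited by the number of arrays. Microarray levels of different genes were not compared as transcript amounts. They were set side by side for the background reference, near the top of the scale, and for the brightness of roles. The labels call the samples separate mice. Mouse numbers 1 to 10 occur in both groups, and whether they pair mice was checked. Alternatives were quantile normalization, array centring, a level filter, the brightest probe set, a trended robust prior, array weights, a replicate block, a principal component covariate, and omission of single mice or of the 4 arrays with the smallest spread.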

Additional observations from a re-analysis of the deposited data

Results flagged for a closer look

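Each genotype of each of the 30 measured genes, 60 groups of 10 livers, was searched for a single liver far from the rest, by the gap to its nearest neighbour over the whole range of the group. About 1 in 20 groups would be picked out by chance, and 2 of 60 were. For F9, heterozygous mouse 8 read 16.72 on the log2 scale, whereas the other 9 heterozygous livers lay between 16.37 and 16.49, a gap ratio of 0.66. For Fgg, heterozygous mouse 2 read 19.07 against 18.27 to 18.66 in the others, a gap ratio of 0.503.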

How the results depend on the processing

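The difference kept its sign in all 29 alternatives for 21 of 30 members. With the 4 arrays of smallest spread left out (WT mice 4 and 6, heterozygous mice 9 and 10), F12 (0.0107), Fga (0.00544) and Proc (0.00893) turned positive, and the correlation of Thbd and Procr turned to 0.0284. That correlation was 0.0585 without the 2 farthest mice, and that of F2 and Serpinc1 turned to -0.110 with the array median as covariate, an alternative chosen after seeing the data. Leaving out 1 mouse at a time turned the sign of 9 genes: F2 (-0.00936 to 0.0337), F12 (-0.0607 to 0.0219), Fga (-0.0738 to 0.00844), Proc (-0.0545 to 0.00729), Hrg (-0.0118 to 0.0591), F8 (-0.0507 to 0.0685), F3 (-0.0679 to 0.0502), Thbd (-0.0971 to 0.0354) and Tfpi2 (-0.0157 to 0.131). Adjusted calls over all genes stayed at 0 except with the first principal component as covariate, where 1 gene passed (smallest adjusted p 0.0236 in limma).

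At unadjusted p under 0.05, members lower in heterozygous livers numbered 0 with array weights (4.31% of all genes) and without the 4 arrays (3.44%), and 0 to 1 with single mice left out (0 without WT mouse 2, 6 or 8 or heterozygous mouse 2 or 5). The Procr p ran from 0.00598 to 0.0740 in limma. Members higher numbered 2 with the trended robust prior (2.79% of all genes), with array weights (3.66%) and without the 4 arrays (3.47%), 0 with the replicate block (2.79%), and 1 to 3 with single mice left out (3 without WT mouse 1, 3.07% of all genes, and 2 without WT mouse 6 or 9 or heterozygous mouse 1). Same-numbered mice deviated together with correlations of -0.172 to 0.166, over 0.1 in 4 of 10, and 2 of 10 WT mice correlated best with their own number. These values show no strong pairing, but a weaker one was not tested, and the labels do not say what the numbers mark. With the replicate block, limma gave Procr p = 0.0328 and Serpind1 p = 0.0559.

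In heterozygous mice alone Fga and Fgg had r = 0.628 (adjusted permutation p = 0.0661), and in WT mice alone F7 and F10 had r = 0.535 (0.187), with 10 mice in place of 20. Apart from these, Thbd with Procr and F2 with Serpinc1, the planned correlations kept their sign and side of the threshold. Brightness limits Serpina5, A2m, F13a1, F2rl2, Thbd and Procr, which lay at or near background in some or all livers. The filter on low levels gave no value for genes it removed.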

Other observations

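Companion genes of the clotting system were not called either, since no gene passed the adjusted threshold in limma. Among 10 genes of the vitamin K cycle and other cofactor proteins, 1 was lower in heterozygous livers at unadjusted p under 0.05 and 0 were higher, with a median difference of 0.07 on the log2 scale. Over all genes 3.63% were lower at this cutoff. The 1 gene was Gas6, a vitamin K-dependent ligand of receptor tyrosine kinases, at 12.12, 12.68 and 13.29 in WT and 11.81, 12.26 and 12.44 in heterozygous livers (lowest, median and highest), a fold of 0.758 (limma adjusted p = 0.519). Ggcx, the carboxylase that modifies factors II, VII, IX and X, had a fold of 1.16 (unadjusted p = 0.0507 in limma), and Pros1, protein S, the cofactor of activated protein C, 0.873 (p = 0.0518 in limma). Of 14 von Willebrand factor and platelet genes, 7 were below background on all arrays and 1 was lower, Treml1 (fold 0.891, limma p = 0.0417), itself below background. Of 12 other plasma protease inhibitors 1 was lower, Serping1, the C1 inhibitor that also restrains factor XII and kallikrein (fold 0.852, limma p = 0.0389).

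Of 13 acute phase genes 1 was lower, Socs3, a feedback inhibitor of interleukin-6 signalling (fold 0.757, limma p = 0.0377), and the median difference was -0.11. Saa2 had a fold of 0.509 (limma p = 0.0811) and varied widely among mice, with SDs of 1.52 in WT and 1.09 in heterozygous livers. None of 9 hepatocyte transcription factors of coagulation promoters was under an unadjusted p of 0.05 (Cebpb, fold 0.846, limma p = 0.0552). Among cell type markers, beside the 3.63% lower among all genes, 5 of 10 stellate and myofibroblast genes were lower (median -0.23), 3 of 8 of T and NK cells (-0.21) and 2 of 10 of Kupffer cells and macrophages (-0.12). The 5 were Col1a1, Col1a2, Col3a1, Dcn and Pdgfra. Reln, Pdgfrb and Acta2 were lower but not under the cutoff, and Lrat and Des differed by 0.03 each. The 3 were Cd3e, Cd3g and Cd8a, of which Cd8a was above background on 1 array. Nkg7, Klrb1c, Ncr1, Cd3d and Cd4 were not under the cutoff. Cd3d differed by 0.03 and Cd4 by -0.28 on the log2 scale, and both were below background on all arrays, as was Klrb1c. Numbers of these cells were not measured. For hepatocytes 1 of 9 was lower, Pck1, a gluconeogenic enzyme (fold 0.668, limma p = 0.00744), and for sinusoidal endothelium 0 of 10 (-0.08).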
